A study of Mchenga conophoros and Petrotilapia sp. 'chitimba' with 16 samples.

Results

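Antisense loci are stretches of the genome from which RNA was assembled on the strand opposite to an annotated gene, overlapping at least 1 of its exons. They were taken as every locus that the assembly of these libraries classed as exonic overlap on the opposite strand (StringTie class code x) and that had at least 1 count in any library. All loci of that class met the count rule, which gave 400 antisense loci among 61384 assembled loci (0.652%). The RNA was that of the whole brain of adult males of 2 cichlid species, MC for Mchenga conophoros and PC for Petrotilapia sp. 'chitimba', which the series describes as unlike in how aggressively they respond to a mirror. Mirror fish (2 per species) were shown their reflection for 15 min at home, control fish (2 per species) were not, and all brains were taken 90 min later. Every brain was split into an input library of total RNA and an immunoprecipitated (IP) library of RNA pulled down with phosphorylated ribosomal protein S6, the PhosphoTRAP method for enriching ribosome-bound RNA of recently active cells. The 16 libraries thus form 8 groups of 2 fish, and batches a and b each cover all groups: in MC, fish 10 (batch a) and 22 (batch b) were controls and fish 9 (a) and 21 (b) faced the mirror; in PC, fish 11 (a) and 24 (b) were controls and fish 12 (a) and 23 (b) faced it.

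RNA antisense to a gene can arise from a gene of its own, from the far end of a neighbouring gene on the other strand, or from a promoter that fires in both directions. Some antisense transcripts act on the gene they overlap, by transcriptional interference, by masking sites in the paired RNA or through the chromatin, and double-stranded RNA is a substrate of the ADAR and Dicer enzymes. Many have no known role. In vertebrate brain, antisense transcripts are known at homeobox and synaptic genes, and the compact mitochondrial genome is transcribed along both strands before its RNAs are cut apart.

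The 8 input libraries held 10073251 to 23594320 counts and the 8 IP libraries 1872019 to 11186928, with the fewest in the IP of MC mirror fish 9 and of MC control fish 10. The PC mirror inputs were the deepest, at 22058698 and 23594320. The IP libraries resembled one another less than the inputs did, with a median correlation between libraries of 0.43 against 0.81 over 498 abundant loci. Among marker lists, the 4 neuron genes found summed to 1878 to 4057 CPM (counts per 1000000 counts, scaled by TMM) in the inputs, and no red blood cell or skeletal muscle gene of the lists was found by symbol. Whether the libraries kept the strand is not given in the sources used here; without strand, reads of a gene and of its antisense partner cannot be told apart in the bases they share. Every antisense locus carried a strand in the table, which class x requires, whereas 95.9% of loci within introns and 89.5% of unannotated loci carried none. Counts said below to be on a strand are those of the locus that the table places there.

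The antisense loci were about as long as annotated genes, with a median span of 5499.5 bases against 6426, and ranged from 235 to 494532 bases. They lay on both strands (207 plus, 193 minus); 396 were nuclear and 4 mitochondrial. An annotated locus on the opposite strand (class code =) overlapped 332 of them, and is called the sense partner here. For 295 the partner was the gene for which the assembly had named the antisense locus, and for 37 it was another gene. The other 68 had no such partner. Of these, 22 lay opposite no locus outside class x, in a search that left out loci without a strand. The rest lay opposite a locus of another class, most often one that shares splice sites with a gene without matching it in full (class j, 25 loci). Overlapping antisense loci formed 16 clusters with 38 members, the largest with 5, and such members can share reads.

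Partners were arranged in 4 ways. Tail-to-tail pairs, whose 3′ ends overlap, were the most frequent with 97, followed by 89 head-to-head pairs with overlapping 5′ ends, 76 antisense loci within the sense locus, and 70 that contained the whole sense locus. Tail-to-tail loci were short (median span 2714 bases), had the highest median level (3.78 CPM averaged over the inputs) and were present in all 8 inputs in 44 cases. Head-to-head loci had a median of 0.743 CPM and 21 present in all inputs, and loci within their partner a median of 0.429 CPM and 13. The loci that contained their partner spanned a median of 36852 bases, and 28 of the 70 also overlapped an annotated gene on their own strand. The overlap itself had a median of 1503 bases, but 24 pairs shared only 1 to 5 bases. Among all 400, 51 overlapped an annotated gene on their own strand and 21 began within 1000 bases downstream of one, among them 8 of the 97 tail-to-tail and 0 of the 89 head-to-head loci.

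Most antisense loci were low. The median over loci of the mean input level was 1.12 CPM, 193 loci stayed under 1 CPM, 77 exceeded 10 CPM and 13 exceeded 100 CPM. In all 8 inputs 130 loci had counts and 19 had none in any input. In the IP libraries 18 loci had counts in all 8, and 145 had none. Per library, 207 to 305 loci were present in an input and 41 to 125 in an IP. After all libraries had been thinned to the smallest total, 46.5 to 63.75% of antisense loci were present in an input and 10.25 to 30.75% in an IP, against 45.8 to 54.6% and 7.60 to 21.5% of annotated loci. A locus at 0 could still have reached the level of 3 counts, which is 0.127 to 0.298 CPM in the inputs and 0.268 to 1.60 CPM in the IP libraries; such floors cover counting error only.

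**Figure D1:**
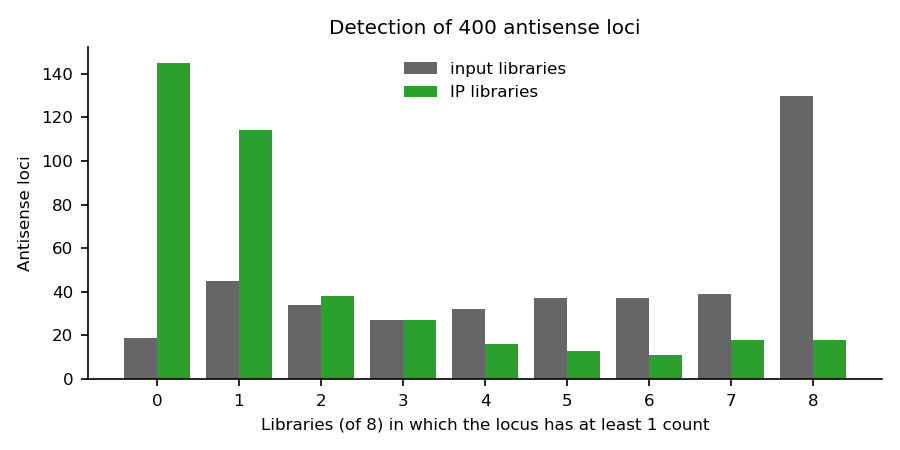
Number of antisense loci (vertical axis) by the number of libraries of a fraction in which they had at least 1 count (horizontal axis), for the 8 inputs in grey and the 8 IP libraries in green. In the inputs the tallest bar is at 8 libraries, with 130 loci; in the IP libraries it is at 0, with 145 loci.

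Counts on antisense loci made up 2.25%, 0.602%, 2.99% and 2.55% of the inputs of MC fish 10, 22, 9 and 21, and 2.10%, 1.78%, 1.33% and 1.85% of those of PC fish 11, 24, 12 and 23. The low value of fish 22 lay in the mitochondrial loci, which held 0.0328% of its input and 0.771 to 2.29% of the other 7. In the IP libraries the mitochondrial antisense share was at most 0.00471%, while all mitochondrial loci together still held 2.94 to 14.3% of IP counts against 20.7 to 30.6% of input counts.

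The nuclear antisense share was higher in IP than in input in 8 of 8 fish. Over nuclear counts, it ran from 0.654% (fish 11) to 1.01% (fish 9) in the inputs and from 0.955% (fish 22) to 1.67% (fish 9) in the IP libraries, so that only the IP values of fish 22 and 11 reach down to the input range. It rested on few loci: the 10 nuclear loci most abundant in the inputs held a median of 56.5% of the nuclear antisense counts of an input. The 10 most abundant in the IP libraries, chosen apart, held a median of 68.7% of those of an IP. Without the 10 loci, nuclear or mitochondrial, with the highest mean input level, the antisense share of all counts was 0.239 to 0.331% in the inputs and 0.336 to 0.795% in the IP libraries. Mitochondrial loci held 20.7 to 30.6% of all input counts and 2.94 to 14.3% of all IP counts, which lowers the input share more. That share was not taken over nuclear counts, so no rise from input to IP is read from it. Within pairs, antisense counts made up 7.96 to 15.7% of the summed counts of nuclear pairs in the inputs and 10.7 to 18.3% in the IP libraries, higher in IP in 7 of 8 fish. Another share took pairs whose partner covers at least 50% of the antisense locus, mitochondrial pairs included. It was 0.823 to 9.77% in the inputs and 0.959 to 9.94% in the IP libraries, higher in IP in 2 of 8 fish. Under that limit nuclear pairs were not counted apart, so their direction is not known. These shares are a description, with no test.

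**Figure D2:**
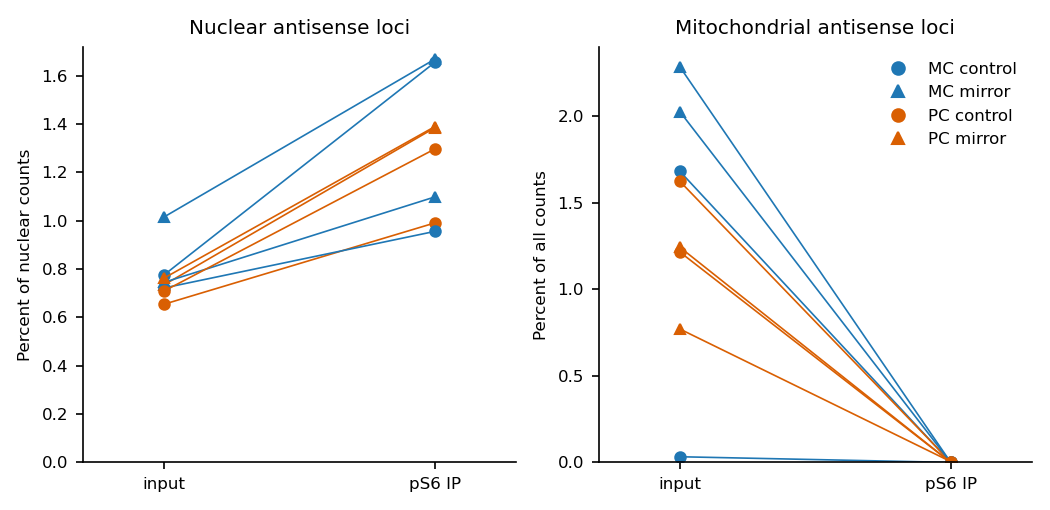
Antisense share of counts in input and IP, 1 line per fish, with MC in blue, PC in orange, circles for control and triangles for mirror fish. Left, nuclear antisense loci as a percent of nuclear counts, which rise from input to IP in 8 of 8 fish; right, the 4 mitochondrial loci as a percent of all counts, which fall to at most 0.00471% and are already at 0.0328% in the input of fish 22.

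The locus with the most input counts was mitochondrial and lay opposite the locus labelled APK84_gr01, which it overlapped by 807 bases. Its level was 13943, 154, 18906 and 19947 CPM in the inputs of MC fish 10, 22, 9 and 21, and 18039, 13155, 7393 and 16075 CPM in those of PC fish 11, 24, 12 and 23. Fish 22 alone was low, and the species groups overlapped (log2 fold change of PC over MC 0.45 ± 0.94 SE, edgeR adjusted p = 0.809). It passed the test when fish 10 was left out, which leaves fish 22 as the only MC control, and not when any other fish was; over the 8 omissions its log2 fold change ran from −0.35 to 3.02. The sense partner stayed at 119682 to 221704 CPM in all 8 inputs, fish 22 included.

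The second lay opposite ccnh, which encodes cyclin H of the kinase that activates other cyclin-dependent kinases. It contained the whole ccnh locus and, on its own strand, overlapped rasa1, a Ras GTPase-activating protein. It stood at 635, 248, 1219 and 722 CPM in MC fish 10, 22, 9 and 21 and at 604, 418, 494 and 448 CPM in PC fish 11, 24, 12 and 23, with overlapping groups and no call (log2 −0.33 ± 0.21, adjusted p = 0.342). Its partner ccnh had 0.878 to 12.4 CPM. The third, opposite ssbp2, a cofactor of LIM-domain transcription factors, overlapped iqgap2 on its own strand. Its MC levels of 624, 709, 999 and 728 CPM were all above its PC levels of 308, 407, 351 and 591 CPM (log2 −0.91 ± 0.21, adjusted p = 0.0251), a call that was lost when fish 10, 22, 11, 24 or 12 was left out (adjusted p up to 0.140).

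The fourth was a 2179-base locus named for cpsf2, a subunit of the complex that cuts pre-mRNA before the poly(A) tail is added. It overlapped riox1, a ribosomal oxygenase, tail to tail by 4 bases. In a RefSeq gene order, not of the build used here, ndufb1 lies between cpsf2 and riox1. Whether the antisense locus belongs to ndufb1 was not tested. The locus had 244, 508, 184 and 302 CPM in MC fish 10, 22, 9 and 21 and 542, 738, 569.9 and 1054 CPM in PC fish 11, 24, 12 and 23. Every PC fish was above every MC fish (log2 1.28 ± 0.16, adjusted p = 0.00195), and riox1 did not pass the test (log2 0.57 ± 0.77, adjusted p = 0.682).

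Of the other abundant loci, those opposite LOC101483353 and f2r were higher in PC and that opposite LOC101473612 was lower, each in all 4 against 4 fish. The locus at LOC101483353 had 186, 339.6, 220.2 and 278 CPM in MC fish 10, 22, 9 and 21 and 356, 533, 465 and 707 CPM in PC (log2 1.00 ± 0.16, adjusted p = 0.00565). At f2r, the thrombin receptor gene, antisense levels were 55.3, 89.6, 41.7 and 52.6 CPM in MC and 144, 237, 124 and 307 CPM in PC (log2 1.73 ± 0.21, adjusted p = 0.00172). The f2r locus of another class on the opposite strand did not pass (log2 −0.34 ± 0.20, adjusted p = 0.332). At LOC101473612 antisense levels were 229, 200.02, 226 and 241 CPM in MC and 111, 91.2, 117 and 93.4 CPM in PC (log2 −1.12 ± 0.18, adjusted p = 0.00471). The locus named for LOC101487783, which contains inha (inhibin alpha), was called lower in PC (log2 −0.86 ± 0.22, adjusted p = 0.0408), but MC fish 22 at 87.4 CPM lay within the PC range of 64.9 to 94.0 CPM, and the call was lost without fish 10, 22, 9, 11, 24 or 12 (adjusted p up to 0.169).

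A locus of 495 bases opposite ubb, a polyubiquitin gene, was at 0 in some inputs and abundant in others. In the inputs it was at 0 in MC fish 10, 9 and 21, at 207 CPM in MC fish 22, and at 257, 299.8, 161 and 399 CPM in PC fish 11, 24, 12 and 23. The groups thus overlapped through fish 22, and the call (log2 9.05 ± 2.03, adjusted p = 0.0296) was lost without fish 11, 12 or 23 (adjusted p up to 0.0787). The fitted fold change rests on the MC fish at 0. The ubb locus of class j on the opposite strand was higher in PC (log2 1.68 ± 0.14, adjusted p = 6.84e-04). Ubiquitin genes carry near-identical repeats, so the split of reads among them is uncertain. The zeros of the antisense locus did not go by fish. In the IP libraries, scaled among themselves, it had 170 CPM in MC fish 21 and 76.6 CPM in MC fish 22. It was at 0 in the IP of MC fish 10 and 9, and at 242 to 843 CPM in that of the PC fish.

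To ask which antisense loci differ between the species, PC was compared with MC in the 8 inputs, averaged over mirror and control fish. After the filter on low counts 254 of the 400 members were tested, and 58 of them passed (edgeR quasi-likelihood test, Benjamini-Hochberg adjusted p under 0.05 over all 28742 loci tested), 41 higher and 17 lower in PC. Among all loci tested 10.4% passed (8.16% higher and 2.28% lower). Of the 254 members tested, 43 were called with every PC fish on the same side of every MC fish (29 higher, 14 lower). Over all loci this held for 2553 of the 28742 tested (8.88%), of which 3000 were called. The median log2 fold change was 0.70 over the tested antisense loci, 0.32 over annotated and 0.60 over class j loci. It was −1.63 over loci within introns, −0.51 over unannotated loci and 0.03 over all loci. By class, 22.8% of antisense, 12.7% of annotated and 26.4% of class j loci were called, against 2.47% within introns and 7.04% of unannotated loci. By arrangement, 18 of 70 tail-to-tail, 10 of 54 head-to-head, 13 of 49 containing, 3 of 32 within and 14 of 49 partnerless loci were called.

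The number of calls differed between the fits. All 58 had the same direction in every fit that tested them, and 23 of the 58 were called whichever fish was left out. Leaving out 1 fish gave 28 to 69 calls, the fish of batch a by themselves 28 and those of batch b 6. A fit of all 16 libraries, in which the inputs share the spread of the IP libraries, called 0 of 267 and also 0 of all 29597 loci (0.0%). There, 43 of the 267 had an unadjusted p under 0.05, against 2068 of the 29597. DESeq2 called 89 of the same 254, with 20.5% of all loci. Inputs thinned to 1 depth gave 59 of 247, with 3068 of all 28537 loci. Over all loci the calls also fell in either batch alone, and went below or above those of the main fit when 1 fish was left out. The share of input counts on intronic loci differed by species, at 1.22 to 2.11% in MC and 0.566 to 0.767% in PC, as did summed markers of cell types: 2 of 3 radial glia genes were higher in PC (4365 to 5724 CPM in MC, 6513 to 10937 CPM in PC) and 1 of 2 oligodendrocyte genes was lower (827 to 1121 CPM in MC, 133 to 639 CPM in PC). Neuron genes (0 of 4 called) summed to 3274 to 4057 CPM in MC and 1878 to 3339 CPM in PC, and microglia and macrophage genes (0 of 2 called) to 393 to 538 CPM in MC and 234 to 381 CPM in PC. Their part in the antisense differences was not tested. In whole-brain RNA, fewer cells of a type and less RNA per cell cannot be told apart.

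In the inputs, some loci had counts in 1 species and 0 in the other. The assembly to which the reads of each species were aligned is not given in the sources used here; its part in these zeros, and in the bounds drawn from them, was not tested. With no test, 12 antisense loci had counts in all 4 PC inputs and 0 in all 4 MC inputs, and 3 the reverse, together 3.75% of the 400 against 1.2% of all loci and 0.702% of annotated loci. Zeros also stood beside high counts: of 146 antisense loci with at least 100 counts in an input, 47 (32.2%) had 0 in another, against 12.8% of all 15557 such loci.

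The most abundant of these PC-only loci was mitochondrial and lay within ND1, a subunit of respiratory complex I. It had 174, 33.7, 44.7 and 65.7 CPM in PC fish 11, 24, 12 and 23 and 0 in all 4 MC inputs, at least 312-fold higher in PC against a floor of 3 counts per library (adjusted p = 8.55e-04). That fold, like the others given against a floor, is the mean over fish divided by the mean floor, not a bound for each fish. ND1 itself was at 7798 to 11086 CPM in all 8 inputs, with no difference called (log2 0.07 ± 0.12, adjusted p = 0.751). Next was a 54411-base locus opposite serbp1, an mRNA- and ribosome-binding protein, with 61.5, 45.7, 25.8 and 46.3 CPM in PC and 0 in MC, at least 176-fold higher (adjusted p = 4.95e-04). The serbp1 locus of class j on the opposite strand did not pass (log2 0.64 ± 0.21, adjusted p = 0.0958). In the other direction, a 473-base locus that overlapped the tetraspanin gene tspan7 tail to tail by 3 bases had 68.2, 42.4, 134 and 45.9 CPM in MC fish 10, 22, 9 and 21 and 0 in all 4 PC inputs, at least 328-fold lower in PC (adjusted p = 2.73e-04). Its partner tspan7 did not pass (log2 −0.57 ± 0.20, adjusted p = 0.114). These 3 calls were kept whichever fish was left out. In the IP libraries, scaled among themselves, the tspan7 antisense locus was not confined to MC. In PC it had 52.8 CPM in fish 12, 0.203 CPM in fish 23 and 0 in fish 11 and 24. In MC fish 10, 22, 9 and 21 it had 0, 18.9, 33.6 and 5.57 CPM.

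Lower in level were PC-only loci at LOC101479619, LOC106675756 and myo1d, an unconventional myosin, with at most 8.01 CPM, and an MC-only locus at LOC112430478 with 8.70, 6.61, 1.68 and 4.01 CPM in MC fish 10, 22, 9 and 21. The first 3 were called (adjusted p = 0.0220, 0.0289 and 0.0482) but each was lost when any of 6 or 7 of the 8 fish was left out, all 4 PC fish among them, with adjusted p up to 0.165, 0.133 and 0.220. The last was at least 23.7-fold lower in PC (adjusted p = 0.00836) and was lost without fish 10 (adjusted p = 0.0636).

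Other loci differed widely in level without being at 0 in every fish of a species. The locus opposite LOC101476621 with identifier MSTRG.6975 stood at 0.553, 2.08, 0.0798 and 0.911 CPM in MC fish 10, 22, 9 and 21 and at 49.5, 87.4, 45.3 and 113 CPM in PC fish 11, 24, 12 and 23 (log2 6.69 ± 0.40, adjusted p = 2.17e-04). At LOC112430726 a locus of 494532 bases, the longest of all, had 9.57, 4.17, 8.54 and 12.8 CPM in MC and 0, 0, 0.136 and 0 CPM in PC (log2 −8.38 ± 1.13, adjusted p = 0.00342). The value of PC fish 12 is the level of 3 counts, so the fitted fold change rests on fish at 0. Antisense RNA at hdac5, a histone deacetylase, was at 10.4, 9.51, 19.5 and 13.4 CPM in MC and 4.94, 5.27, 4.30 and 2.40 CPM in PC (log2 −1.63 ± 0.39, adjusted p = 0.0308), but that call was lost without fish 10, 22, 11, 24, 12 or 23 (adjusted p up to 0.152). Lower in PC by log2 −1.80 ± 0.24 and −1.51 ± 0.25 were the loci opposite LOC101464846 and LOC112429673 (adjusted p = 0.00243 and 0.00615), whose partners did not pass the test. The locus named for LOC101485845 was lower too, at 26.7, 30.8, 40.7 and 37.8 CPM in MC and 7.05, 3.66, 17.2 and 2.01 CPM in PC (log2 −2.49 ± 0.52, adjusted p = 0.0180), a call lost without fish 11 or 24. That at LOC106674879 was higher, at 1.68, 3.48, 2.49 and 9.10 CPM in PC and 0, 0.634, 0 and 0 CPM in MC (log2 6.47 ± 1.41, adjusted p = 0.0262), and was lost without fish 10, 11, 24, 12 or 23. The locus at LOC112435433, described with the mirror comparison, was higher in PC by log2 6.73 ± 0.43 (adjusted p = 2.73e-04). That average over conditions includes MC mirror fish 9 and 21 at 0 and 0.0911 CPM. Control fish were closer, at 19.8 and 15.8 CPM in MC and 77.5 and 151 CPM in PC.

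**Figure D3:**
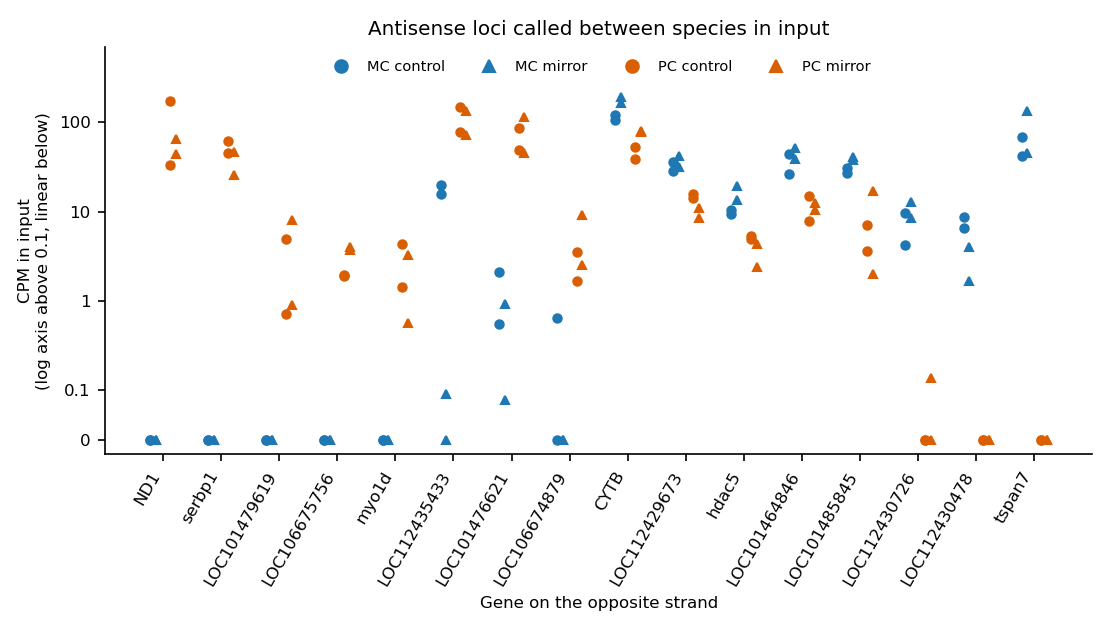
CPM in the 8 inputs (vertical axis, logarithmic above 0.1 CPM and linear below) of the 16 antisense loci with the largest called differences between species and no overlap of the groups, ordered from highest to lowest log2 fold change of PC over MC. MC is blue, PC orange, circles are control and triangles mirror fish. At ND1 and serbp1 all 4 MC fish sit at 0, at tspan7 all 4 PC fish do.

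The mitochondrial loci did not share a direction. A locus of 731 bases within CYTB, cytochrome b of respiratory complex III, had 120.3, 107, 166 and 193 CPM in MC fish 10, 22, 9 and 21 and 52.9, 38.9, 79.8 and 78.4 CPM in PC fish 11, 24, 12 and 23, lower in every PC fish (log2 −1.25 ± 0.20, adjusted p = 0.00474). Its sense partner CYTB did the reverse, at 2712 to 4572 CPM in MC and 9875 to 11837 CPM in PC (log2 1.54 ± 0.13, adjusted p = 6.86e-04). The locus at COX3, a subunit of complex IV, named here after its values were seen, was called higher in PC (log2 3.80 ± 1.01, adjusted p = 0.0462), but its groups overlapped, with 124, 38.5, 0.798 and 2.19 CPM in MC and 426, 5.27, 176 and 156 CPM in PC.

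Each antisense locus was next set beside its sense partner. Of the 332 pairs, both members were tested in 183. In 122 of these neither was called between species, in 25 only the antisense locus, in 22 only the sense locus, in 10 both in the same direction and in 4 both in opposite directions. Over the 183 pairs, called or not, the median log2 fold change was 0.44 for the antisense and 0.53 for the sense members. The median absolute log2 fold change was 1.28 for the antisense and 0.82 for the sense members, as a description with no test. Over all 332 pairs the antisense members had a median of 8 counts per input and the sense members 89. Across pairs the log2 fold changes correlated at 0.26, as a description, since both members come from the same 8 libraries. Of 177 distinct partners, 34 (19.2%) were called, against 12.7% of all annotated loci.

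Among all loci tested, 8.16% were called higher and 2.28% lower in PC, and 54 of the 254 antisense loci tested were head to head. Whether reads in the bases a pair shares were counted for both of its loci was not tested. All 10 same-direction pairs were higher in PC at both loci, and 8 of them were head to head, a number not counted over the 183 pairs. The pair at pfdn1, a subunit of the chaperone prefoldin that helps fold actin and tubulin, is an example: its antisense locus had 13.7, 37.3, 4.31 and 17.9 CPM in MC fish 10, 22, 9 and 21 and 44.9, 41.6, 39.1 and 74.8 CPM in PC fish 11, 24, 12 and 23 (log2 1.78 ± 0.35, adjusted p = 0.0136). The pfdn1 gene itself ran from 223 to 597 CPM in MC and from 1119.9 to 2281 CPM in PC (log2 1.95 ± 0.15, adjusted p = 5.30e-04). At LOC101483353 the antisense and sense loci differed by log2 1.00 ± 0.16 and 1.87 ± 0.30. At rpl37a, a ribosomal protein gene with a tail-to-tail partner, they differed by log2 7.74 ± 1.61 and 0.65 ± 0.13. The antisense groups overlapped there, at 0, 0.272, 0 and 0 CPM in MC and 6.10, 0.268, 7.06 and 27.8 CPM in PC, so that the fitted fold change rests on fish at 0.

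The 4 opposite pairs were CYTB, sv2a, slc38a2 and LOC112430151, named because their count was small. At sv2a, a synaptic vesicle glycoprotein, the head-to-head antisense locus had 15.3, 21.4, 8.86 and 6.74 CPM in MC fish 10, 22, 9 and 21 and 24.2, 34.5, 20.9 and 45.5 CPM in PC fish 11, 24, 12 and 23 (log2 1.33 ± 0.30, adjusted p = 0.0235). The sv2a gene was at 136 to 214 CPM in MC and 52.3 to 109 CPM in PC (log2 −1.29 ± 0.19, adjusted p = 0.00371). At slc38a2, a neutral amino acid transporter, the signs were the other way round: 96.7, 71.6, 95.3 and 103 CPM in MC and 47.9, 44.0, 41.5 and 50.1 CPM in PC on the antisense strand (log2 −0.99 ± 0.21, adjusted p = 0.0181), and 19.7 to 36.2 CPM in MC and 44.1 to 67.8 CPM in PC on the sense strand (log2 1.02 ± 0.22, adjusted p = 0.0195). That pair shared 4 bases and was tail to tail. At LOC112430151 the antisense locus was higher (log2 0.79 ± 0.19, adjusted p = 0.0322) and the sense locus lower in PC (log2 −1.69 ± 0.39, adjusted p = 0.0257). The sense groups of sv2a did not overlap, whereas its antisense groups met between MC fish 22 at 21.4 CPM and PC fish 12 at 20.9 CPM. The antisense groups of LOC112430151 overlapped too, with MC fish 22 at 104 CPM above PC fish 11 at 82.1 CPM and fish 12 at 87.6 CPM.

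**Figure D4:**
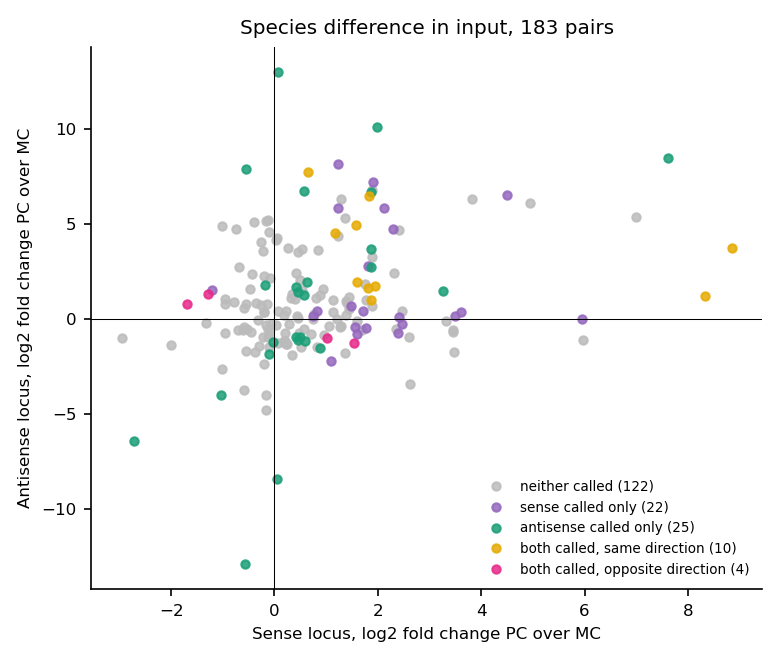
Log2 fold change of PC over MC in the inputs for 183 antisense loci (vertical axis) against their sense partners (horizontal axis), 1 point per pair, coloured by which members passed the test. The 10 pairs called in the same direction lie in the upper right, and the 4 called in opposite directions lie in the upper left or lower right.

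Counts were set side by side within pairs. In all 8 inputs the sense locus had more counts in 154 of 332 pairs and the antisense locus in 33, while 79 pairs were at 0 on both strands in at least 1 input. Among the 33 were ccnh, ssbp2, riox1, LOC101483353, and ddx56, an RNA helicase. Of the 33, 18 were tail to tail, 9 contained the partner, 5 were head to head and 1 lay within it, and 6 shared only 1 to 5 bases. In the IP libraries the antisense locus had more counts in all 8 in 9 pairs and the sense locus in 34, with 281 pairs at 0 on both strands in at least 1 IP. These are shares of counts, not levels per length, since the table gives spans and not exon lengths.

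Mirror exposure was compared with control in the inputs, averaged over species. Of the 254 members tested 1 was called, against 0.0104% of all loci. An unadjusted p under 0.05 was seen for 19 members, against 1170 of all 28742 loci tested. DESeq2 called 5, with 0.484% of all loci. The called locus, MSTRG.19476, overlaps LOC112435433 head to head by 7586 bases. Its level was 19.8 and 15.8 CPM in MC fish 10 and 22, the controls, and 0 and 0.0911 CPM in fish 9 and 21, which had faced the mirror. In PC fish 11 and 24, the controls, it stood at 77.5 and 151 CPM, and with the mirror it stood at 71.6 CPM (fish 12) and 134 CPM (fish 23). The MC mirror fish were thus the low ones, the PC fish of both conditions overlapped, and so did mirror and control fish pooled over species.

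For that locus the mirror effect was log2 −4.32 ± 0.42 (edgeR adjusted p = 0.0347). The effect differed between species, by log2 8.36 ± 0.85 on the interaction of species and mirror exposure (edgeR adjusted p = 0.0467). The locus was again the only member called of 254 (0.0104% of all loci). At an unadjusted p under 0.05 there were 22 members, against 1444 of all 28742 loci tested. DESeq2 called 5, with 0.609% of all loci. Both calls were lost without fish 11, 24, 12 or 23, with adjusted p up to 0.277 for the mirror effect and 0.337 for the interaction. Neither was called in the fit of all 16 libraries (adjusted p = 1), without a batch term (0.0528 and 0.0791) or under the stricter filter on low counts (0.133 and 0.154). Over all alternatives the adjusted p ran from 1.33e-29 to 1 for the mirror effect and from 8.14e-28 to 1 for the interaction. The sense locus LOC112435433 had 0 to 4.42 CPM in the inputs. In the IP libraries, scaled among themselves, the antisense locus had 120.5 CPM in fish 10, 329 in fish 24 and 81.7 in fish 12, and 0 in the other 5 fish.

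IP was compared with input over all 16 libraries to ask which antisense RNAs are enriched or depleted with phosphorylated S6. CPM in this comparison were scaled over the 16 libraries together. Of the 267 members tested 115 were called, 3 higher and 112 lower in IP, against 57.8% of all loci (0.331% higher and 57.4% lower). The median log2 fold change was −3.88 over members and −4.97 over all loci, so most loci of the table, antisense or not, were lower in IP. Of the 267 members tested, 35 were called with all 8 fish moving in 1 direction (2 up, 33 down). Over all loci this held for 6379 of the 29597 tested (21.6%), of which 17095 were called. With each fish as a block, which compares the 2 fractions of the same brain, 3 of 267 were called (1.54% of all loci), and leaving out 1 fish gave 71 to 85. The fish of batch a by themselves gave 40 calls and those of batch b 32, and leaving out fish 9 and 10, with the shallowest IP libraries, gave 40.

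The 3 loci called under the block were the mitochondrial ones at APK84_gr01, COX3 and CYTB, named for that reason. At APK84_gr01 the antisense locus stood at 186 to 26299.5 CPM in the inputs and 0 in all 8 IP libraries. As a ratio of means it was at least 30647-fold lower against a floor of 3 counts per library, a bound that does not hold for fish 22 at 186 CPM. The sense partner of APK84_gr01 also fell, by 2.93 on the log2 scale (adjusted p = 0.00124), from 144307 to 245394 CPM in input to 8337 to 106303 CPM in IP. The CYTB antisense locus had 40.2 to 245 CPM in the inputs, 27.2 CPM in the IP of fish 11 and 0 in the other 7 IP libraries (log2 −10.56 ± 1.60, adjusted p = 0.00137). At COX3 it was at 1.11 to 464 CPM in input, with counts in 3 of 8 IP libraries, up to 54.3 CPM (log2 −8.27 ± 1.82 under the block, adjusted p = 0.00219).

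Of the 3 loci higher in IP, that at ccnh was the most abundant. In MC fish 10, 22, 9 and 21 it went from 867, 300.5, 1696 and 918 CPM in input to 4011, 743, 3145 and 2095 CPM in IP, and in PC fish 11, 24, 12 and 23 from 658, 432, 545 and 455 CPM to 914, 673, 1059 and 624 CPM. It rose in 8 of 8 fish (log2 1.05 ± 0.29, adjusted p = 0.0107), with an adjusted p of 0.115 under the block. Its partner ccnh had 1.22 to 13.7 CPM in the inputs and 0 in all 8 IP libraries. This was the only pair of 194 tested on both strands whose members were called in opposite directions. The 1.22 CPM of ccnh, in fish 9, is near the level of 3 counts in the IP of that fish (1.60 CPM before TMM scaling). The antisense locus also overlaps rasa1 on its own strand, and which gene its counts come from was not tested. The locus at LOC101487835 rose from 16.8 to 41.0 CPM in input to 64.5 to 430 CPM in IP, in 8 of 8 fish (log2 2.31 ± 0.64, adjusted p = 0.0105, block 0.125). The locus at LOC101483353 rose in 7 of 8 fish, from 254 to 718 CPM to 91.0 to 3793 CPM (log2 1.28 ± 0.40, adjusted p = 0.0194, block 0.1004). That call was lost without fish 22, 21, 24, 12 or 23.

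Among the abundant nuclear loci that fell, the locus at f2r dropped in 8 of 8 fish, from 58.0 to 312 CPM to 0 to 148 CPM (log2 −3.85 ± 1.06, adjusted p = 0.0103, block 0.0732, lost without fish 11). The f2r locus on the opposite strand fell too (log2 −2.68 ± 0.75, adjusted p = 0.0115). No count in any of the 8 IP libraries was seen for 145 of the 400 antisense loci and for 17825 of 30487 annotated loci. Of the 145, 14 were present in every input, that at APK84_gr01 among them, a count not made over all loci. The others named for a large fall were the loci at LOC101477216, ddx56, hdac5, xpnpep1 (an aminopeptidase), LOC101481076 and kif16b (an endosomal kinesin), at least 45.5-, 28.8-, 20.97-, 18.9-, 15.98- and 13.9-fold lower, each with an adjusted p of 0.00124. These folds are ratios of means, and none of these loci was called under the block. The xpnpep1 locus had only 1.22 CPM in the input of fish 9, near the level of 3 counts in the IP of that fish (1.60 CPM before TMM scaling). Not called were the loci at ssbp2 (log2 0.70 ± 0.32, adjusted p = 0.0819) and at cpsf2 (log2 0.68 ± 0.41, adjusted p = 0.181), which passed without fish 22 and without fish 10, respectively. Over the 194 pairs tested on both strands, both members fell together in 60, only the sense member was called in 56, only the antisense member in 29 and neither in 48, and 60.6% of the partners were called, against 63.8% of all annotated loci.

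**Figure D5:**
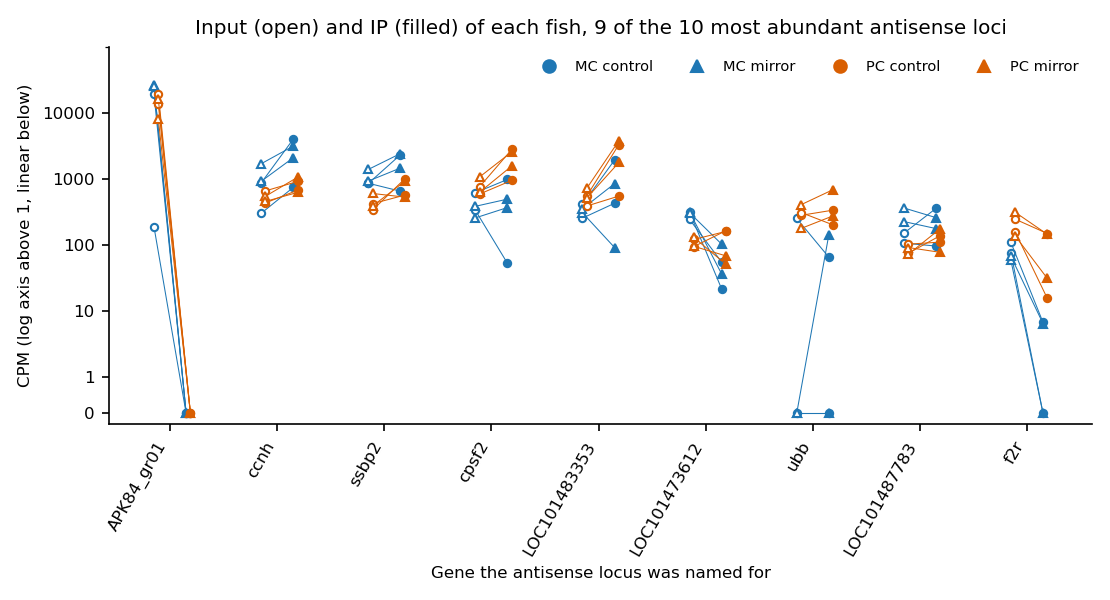
CPM in input (open symbols) and IP (filled symbols) of each fish for 9 of the 10 antisense loci with the most input counts (vertical axis logarithmic above 1 CPM and linear below), with a line joining the fractions of 1 fish, MC in blue and PC in orange. At APK84_gr01 all 8 lines drop to 0, at ccnh all 8 rise, and at f2r all 8 fall.

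Between species in the IP libraries, 119 members were tested and 3 were called, all higher in PC, against 0.815% of all 10304 loci tested (0.708% higher). Of the 119, 10 had an unadjusted p under 0.05, against 696 of the 10304. DESeq2 called 14, with 13.3% of all loci, and the fit of all 16 libraries 2, with 0.561%. The 3 overlap one another, at LOC112434752 (MSTRG.6969) and LOC101476621 (MSTRG.6972 and MSTRG.6975), so they can share reads and are not independent. MSTRG.6969 had 0, 1.40, 0 and 1.49 CPM in the IP of MC fish 10, 22, 9 and 21 and 863, 230.5, 2485 and 259 CPM in that of PC fish 11, 24, 12 and 23 (log2 10.34 ± 1.68, edgeR adjusted p = 4.82e-07). Every PC fish was far above every MC fish, and the call was kept without any 1 fish (adjusted p up to 0.0429). The class j locus of LOC112434752 on the opposite strand was also higher in PC, by log2 3.94 ± 0.42 in IP (adjusted p = 1.52e-17) and 2.22 ± 0.36 in input (adjusted p = 0.00531). In the inputs MSTRG.6969 had 0.160 to 12.4 CPM in MC and 150 to 219 CPM in PC (log2 5.90 ± 0.94, adjusted p = 0.00525).

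The other 2 had the same pattern with more spread. MSTRG.6975 was at 0.282 to 0.697 CPM in the MC IP libraries and 94.8 to 1003 CPM in those of PC (log2 8.998 ± 2.28, adjusted p = 0.0158), and its call was lost without fish 10, 9, 11, 24 or 12. MSTRG.6972 was at 0 in the IP of MC fish 10, 9 and 21, at 31.1 CPM in fish 22 and at 135 to 1239.9 CPM in PC (log2 9.30 ± 2.13, adjusted p = 0.00314), lost without fish 11, 24 or 12.

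Mirror exposure in the IP libraries gave 1 call among 119 members, against 0.097% of all loci. It is a 28706-base locus that contains LOC112433799, and its level was carried by batch a: 4934 and 526 CPM in mirror fish 9 and 12, 4.08 and 0 CPM in mirror fish 21 and 23, and 3.95, 0, 8.17 and 0 CPM in control fish 10, 22, 11 and 24. The groups overlapped, and the call (log2 7.68 ± 1.38, adjusted p = 7.43e-05) was lost without fish 9, 11 or 12. DESeq2 did not call it (adjusted p = 0.0766) but called 3 others, with 8.35% of all loci, and the fit of all 16 libraries called 0, with 0.00338%. In the inputs the same locus had 185 CPM in control fish 10 and 0 to 3.17 CPM in the other 7. Its sense partner LOC112433799 was very abundant in the IP libraries and highest in mirror fish 9 and 12, at 100030 and 45507 CPM. It had 24078 and 5500 CPM in mirror fish 21 and 23. In control fish 10, 22, 11 and 24 it had 36183, 10492, 30879 and 6254 CPM. Whether the antisense counts hold reads of this partner was not tested.

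Neither the species nor the mirror effect on IP enrichment gave a call among 267 members with edgeR, against 0.0372% and 0.0% of all loci. There were 18 and 5 members with an unadjusted p under 0.05, against 2447 and 1556 of all 29597 loci tested. DESeq2 called 13 and 11, with 8.41% and 6.19% of all loci. With each fish as a block 0 and 0 were called, against 0.115% and 0.0101%. The smallest p for the species effect belonged to the locus tail to tail with ubxn2a, an adaptor of the p97 ATPase. Its inputs were alike in the species, at 30.4 to 43.9 CPM in MC and 22.5 to 43.6 CPM in PC, while its IP level was 0 in all 4 MC fish and 18.7, 16.2, 13.8 and 34.7 CPM in PC fish 11, 24, 12 and 23 (log2 10.85 ± 2.07, unadjusted p = 4.05e-04, adjusted p = 0.157). The loci at bloc1s3, a subunit of the lysosome-related complex BLOC-1, and at rusc2 came next (adjusted p = 0.372 and 0.388). For the mirror effect the smallest p belonged to the loci at LOC105941385, LOC112429673 and LOC101482615 (adjusted p = 0.763 each).

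Genes often studied in behaving fish, or known for antisense RNA in mammals, were looked up from 6 short lists (immediate early genes, neuropeptides and hormones, transmitter receptors and channels, synaptic genes, steroid and nuclear receptors, and antisense-bearing genes), which do not cover these classes in full. Of 152 listed genes, 94 symbols were found in the table, counted over all classes. Named for or partnered with these were 4 antisense loci with at least 10 counts in an input (4.26% of the 94). Over all 29206 symbols of annotated loci there were 360 such antisense loci (1.23%). The 2 percents have unlike bases, and the 4 loci reached 13 to 53 counts in their highest input, so no difference is read from them. The locus head to head with egr1, an activity-induced transcription factor, had 0, 0.634, 0 and 0 CPM in MC fish 10, 22, 9 and 21 and 1.26, 0.893, 2.26 and 2.96 CPM in PC fish 11, 24, 12 and 23, and 0 in all IP libraries (log2 5.26 ± 1.95, adjusted p = 0.141). At dlx1, a homeobox gene of forebrain GABA neurons known for antisense RNA in mammals, it was 0 in all MC inputs and 0.631, 0, 0.633 and 1.40 CPM in PC; in the IP libraries it had 28.3 CPM in fish 23 and 0 in the other 7. At lhx2, a LIM-homeobox gene, it was seen in the input of fish 23 alone (0.837 CPM), and at chgb, the secretory granule protein chromogranin B, it reached 1.16 CPM in the inputs and 2.04 CPM in the IP libraries.

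Of 20 genes that handle double-stranded RNA, 12 were found by symbol and 11 were tested in the inputs. Between species 2 rose in PC, stau2 (log2 0.79 ± 0.18, adjusted p = 0.0288) and stau1 (log2 0.74 ± 0.19, adjusted p = 0.0447), both binders of double-stranded RNA that carry mRNA in neurons, and 0 fell, against 8.16% of all loci higher and 2.28% lower. The median of the list was 0.32, against 0.32 over annotated loci and 0.03 over all loci. After mirror exposure 0 of 11 were called, against 0.0104% of all loci. In IP against input 6 of 11 fell (drosha, adar, ifih1, dicer1, stau2 and xrn2) with a median of −3.88, against 57.8% of all loci called and a median of −4.97.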

How the data were processed

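Whole-number counts for the 16 libraries, not normalized, were deposited by the authors in 1 table, which per the file headers also gives the strand, span and class code of each assembled locus. The tools named are cutadapt, HISAT2, StringTie and DESeq2, per the submitters' processing notes; the sources used here give no version, setting, strandedness or build, so no coordinates or sequences are printed. The authors' 3 deposited result tables were not used here.

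The antisense loci and all gene lists were chosen with earlier results of these data known. The sense partner was the class = locus on the opposite strand with the largest overlap, at least 1 base. The whole table was fitted in R 4.3.3 with edgeR 4.0.16 (TMM, filterByExpr, quasi-likelihood F tests, two-sided, Benjamini-Hochberg adjusted over all loci tested, threshold 0.05). The 8 inputs and the 8 IP libraries were fitted apart for species and mirror effects (groups plus batch), and all 16 together for IP against input and the 2 effects on it. CPM are counts per 1000000 with TMM factors of the libraries in that fit, and errors of log2 fold changes are SE. Input and IP of a fish come from the same brain, per the labels, so the fish pairs them; deviations from the group means correlated at 0.13, 0.06, 0.64 and 0.22 over 498 loci for control and mirror fish of MC and then of PC. The labels tie every other library to a fish of its own.

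Alternatives were DESeq2 1.42.0, RLE size factors, every locus with a count, a stricter filter (10 counts in 0.5 of the libraries), no batch term, each batch alone, an adjusted p under 0.1, each fish left out, fish as a block, all 16 libraries in 1 fit, and other denominators or overlaps for the shares. Added after seeing the data were thinning of the inputs, leaving out fish 9 and 10, and nuclear loci alone for both shares. The fits were tested on simulated data. Tables were joined in Python 3.11.15 with pandas 2.3.3 and numpy 2.4.6, and figures drawn with matplotlib 3.10.9.

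Named are the 10 loci with the highest mean input CPM, in each comparison up to 8 called loci per direction with the largest log2 fold change and no overlap of groups, the 3 smallest p where none was called, loci opposite listed genes with at least 10 counts in an input, and the partners of all these. 1 locus within that rule is not reported here. Loci named outside that rule are said to be so or were counted in small groups.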

Additional observations from a re-analysis of the deposited data

Results flagged for a closer look

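In the MC inputs the antisense locus at ubb was at 207 CPM in control fish 22 and at 0 in fish 10, 9 and 21, so that 1 of 4 fish stood apart from the rest. The same check was run on 44 groups of 4 samples, and chance flags about 1 in 20. In the IP libraries, scaled among themselves, that locus was also present in fish 21, at 170 CPM, beside fish 22 at 76.6 CPM.

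The mirror effect on the locus opposite LOC112435433 (MSTRG.19476) in the inputs differed between the species by 8.36 on the log2 scale, by the interaction test of edgeR (adjusted p = 0.0467, from 8.14e-28 to 1 over the alternatives). In MC its 2 control fish had 19.8 and 15.8 CPM and its mirror fish 0 and 0.0911 CPM, while the PC fish had 71.6 to 151 CPM in both conditions.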

How the results depend on the processing

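Among the values of single named loci, 495 kept their direction and side of the threshold under an alternative, 132 fell short of it, 5 passed it anew, 1 value with no test moved, and 0 reversed. Called antisense loci numbered 58 for species in the inputs, and 89 with DESeq2, 28 in batch a, 6 in batch b and 0 in the fit of all 16 libraries, with 28 to 69 when 1 fish was left out. The median of all loci in that comparison moved from 0.03 to −0.18 without the low-count filter and to −0.26 with all 16 libraries. For the mirror effect in the inputs (1 call), there were 0 with RLE, the stricter filter, no batch term, batch a or all 16 libraries, 5 with DESeq2, 10 without the filter and 0 to 3 with 1 fish left out; the 1 call of batch b was another locus. For its species difference (1 call), there were 0 with the stricter filter, no batch term or all 16 libraries, 5 with DESeq2, 11 without the filter and 0 to 3 with 1 fish left out. In IP, the species count of 3 became 5 with RLE, 14 with DESeq2, 1 without a batch term, 0 with the stricter filter or in either batch, and 1 to 6 with 1 fish left out. The mirror count of 1 in IP became 3 with DESeq2, 0 with the stricter filter, no batch term, either batch, fish 9 and 10 left out or all 16 libraries, and 0 to 1 with 1 fish left out. For IP against input (115 calls) there were 71 with the stricter filter, 3 with each fish as a block, 40 in batch a, 32 in batch b, 40 without fish 9 and 10, and 71 to 85 with 1 fish left out. The effects on IP enrichment gave 0 calls with edgeR, the block and each fish left out included, and 13 and 11 with DESeq2. The cause of these changes was not tested.

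The median antisense share of 1.97% of input counts was 0.739% for nuclear loci over nuclear counts and 0.277% without the 10 most abundant loci, which also took the median share within pairs from 7.74% to 3.48%. The median IP share of 1.25% was 1.54% over annotated counts and 0.363% without these 10, and the median IP share within pairs of 10.1% was 2.68% where the partner covers at least 50% of the antisense locus (6.63% in the inputs), 16.2% for nuclear pairs and 4.28% without these 10. Depth sets a floor: a locus at 0 could have held up to 0.298 CPM in an input and 1.60 CPM in an IP, and with 2 fish per group a single fish decides many calls.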
